A study of Homo sapiens with 21 samples.

Results

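A set of 10 genes of the immediate early class were read across all treatment groups of an RNA-seq study: EGR1, EGR2 and EGR3, NR4A1, NR4A2 and NR4A3, IER2, IER3 and IER5, and SRF. They were taken by gene symbol, and all 10 were found among the 58735 genes measured in 21 libraries. MDA-MB-453 is a breast cancer cell line, wild type by its label, with 3 libraries in each of 7 groups. The question was how calcium and cadmium, as metals thought to act on the orphan receptor ESRRB, change gene expression, with GSK4716 as an agonist and DES (diethylstilbestrol) as an antagonist of that receptor. All cells were first held in IMEM, a culture medium, with charcoal-stripped serum. The calcium group then received 10 mM calcium and the GSK4716 group 5 µM GSK4716, both for 24 h in IMEM without serum, the medium also of DES with calcium. The cadmium group received 10 µM cadmium for 24 h in IMEM with charcoal-stripped serum diluted to 1%, as did DES with cadmium. The DES group received 10 µM DES for 24 h. In the groups DES with calcium and DES with cadmium the DES was added 3 h before the 24 h with the metal, so that its exposure began 3 h earlier there than with DES alone. GSK4716 and DES were dissolved in ethanol. The control group was untreated, and neither its medium in the last day nor a vehicle is given; the medium of DES alone is not given either.

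Immediate early genes are transcribed as soon as a cell receives a signal, before any new protein is needed, and their RNA usually falls again within hours. Growth factors in serum, a rise of calcium inside the cell and cell stress are the classic triggers. The kinase cascade through ERK acts on SRF with its ELK partners at the CArG box, the DNA element SRF binds, and calcium and cAMP signals act on CREB at the cAMP response element. EGR1, EGR2 and EGR3 are zinc finger transcription factors, and NR4A1, NR4A2 and NR4A3 are orphan nuclear receptors whose activity follows their amount more than any ligand. IER2 and IER5 are short-lived nuclear regulators, and IER3 acts on survival and on ERK signalling. Because serum drives these genes and the groups differ in serum, the part of the medium and the part of the treatment cannot be told apart in comparisons with control or with DES alone. Calcium shares its medium with GSK4716 and with DES with calcium, and cadmium shares its own with DES with cadmium.

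Each library held between 14435925 and 28424805 fragments on genes, with a median of 18314738. The deposited values are FPKM, fragments scaled to a library size and the length of the gene, so that levels of different genes can be set side by side. That library size was not the fragments on genes. It was 1.08 to 1.15 times these in control, 0.908 to 1.05 in DES, 0.862 to 0.944 in DES with calcium and 0.693 to 0.960 in DES with cadmium. FPKM in the groups with DES thus stands higher against fragments on genes than in control. Total fragments on genes served as an alternative scale. ERBB2, a marker of this line, was at 97.2 to 210.0 FPKM over the libraries. ESR1 stayed at or below 0.123 FPKM. Of the 7 markers of other cell types, 6 stayed below 0.7 FPKM and COL1A1 lay between 9.34 and 32.7 FPKM. Their summed level was 10.5 to 12.05 FPKM in control, 14.1 to 17.2 in calcium and 12.5 to 33.2 in DES, both above control without overlap, and its part in the results was not tested. It overlapped with control in cadmium (10.0099 to 15.3), GSK4716 (9.80 to 12.04), DES with calcium (9.55 to 16.7) and DES with cadmium (10.3 to 28.8). Libraries of 1 group correlated at r = 0.846 or more. Separate cultures are not stated for the replicates, so p-values measure the spread between these libraries.

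The stretches before the transcript starts are shown first, since the CArG box and the cAMP response element are the sequences through which serum and calcium signals are known to reach these genes. RefSeq promoter windows on GRCh38.p14 were found for 7 of the 10 genes. EGR3, NR4A2 and IER3 had no window in the table used. The search covered the 250 bases before each start on both strands. In the lines that follow, capitals mark CArG boxes (CC and GG around a core of A and T, read the same way on both strands) and the core of the cAMP response element (TGACG, or CGTCA on the other strand). The EGR1 window is chr5:138465229-138465478 on the + strand, the EGR2 window chr10:62816367-62816616 on the - strand (of 3 listed starts, the one with matches), and the SRF window chr6:43171019-43171268 on the + strand. The NR4A3 window, chr9:99821635-99821854 on the + strand, is given up to the first annotated exon.
EGR1: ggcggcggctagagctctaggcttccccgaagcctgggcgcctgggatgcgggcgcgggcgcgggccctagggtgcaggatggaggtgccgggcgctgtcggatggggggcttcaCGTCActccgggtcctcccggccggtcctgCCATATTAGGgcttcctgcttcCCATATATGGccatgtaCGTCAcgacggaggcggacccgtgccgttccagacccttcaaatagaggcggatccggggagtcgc
EGR2: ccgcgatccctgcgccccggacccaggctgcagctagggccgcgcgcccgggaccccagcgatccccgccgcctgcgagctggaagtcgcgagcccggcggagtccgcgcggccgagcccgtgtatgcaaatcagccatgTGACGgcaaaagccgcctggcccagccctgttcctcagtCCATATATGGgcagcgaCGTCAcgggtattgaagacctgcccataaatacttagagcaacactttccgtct
SRF: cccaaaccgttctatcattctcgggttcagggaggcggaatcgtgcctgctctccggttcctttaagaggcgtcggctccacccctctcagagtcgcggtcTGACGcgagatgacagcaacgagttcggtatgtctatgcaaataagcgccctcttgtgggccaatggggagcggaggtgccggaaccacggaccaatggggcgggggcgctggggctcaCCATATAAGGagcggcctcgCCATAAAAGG
NR4A3: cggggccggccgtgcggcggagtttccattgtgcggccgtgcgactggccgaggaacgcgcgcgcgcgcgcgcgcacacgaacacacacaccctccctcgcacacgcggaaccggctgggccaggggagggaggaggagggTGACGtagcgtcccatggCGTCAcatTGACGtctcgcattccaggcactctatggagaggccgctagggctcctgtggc

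EGR1 held the CArG matches CCATATTAGG, at 105 to 96 bases before the start, and CCATATATGG, at 83 to 74 bases. EGR2 held CCATATATGG at 71 to 62 bases before its start. SRF, the gene of the factor that binds this box, held CCATATAAGG at 30 to 21 bases and CCATAAAAGG at 10 to 1 bases before its start. The 7 genes had 11 windows, since some have several listed starts. A CArG box was present in 3 of the 11 (27.3%), against 1.16% of 35116 promoter windows. The TGACG core was present in 5 of the 11 (45.5%), 1 window each of EGR1, EGR2, SRF, NR4A3 and IER2, against 21.2% of all windows. NR4A3 had the most matches of it among these genes, 4, of which 3 are in the line printed. The nearest, at 25 to 21 bases before its start, lies in the stretch left out there. None of the 7 held the whole element TGACGTCA (1.65% of all windows), the EGR site GCGTGGGCG (0.72%), the NR4A site AAAGGTCA (1.05%) or TNAAGGTCA, the element the study searched for ESRRB (0.854%); the core is part of the whole element, and the last 2 sites can overlap each other. A match is a description of the letters and not of binding, and no match covers only this window.

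**Figure D1:**
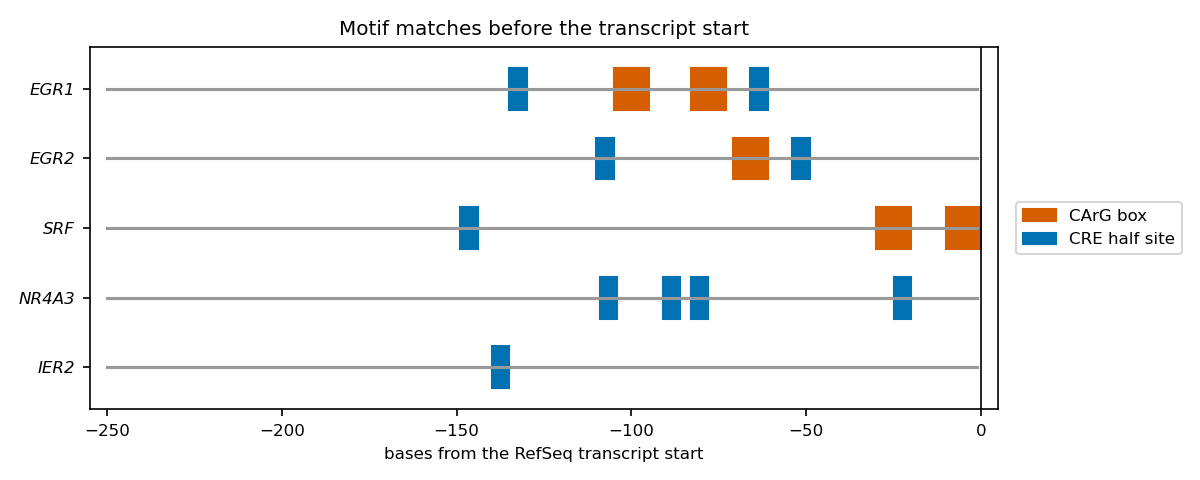
Position of CArG boxes (orange) and cAMP response element cores (blue) in the 250 bases before the RefSeq transcript start of the 5 genes that held either; the x axis gives bases from the start and the line is the window. CArG boxes lie within 105 bases of the start in EGR1, EGR2 and SRF, and NR4A3 holds 4 cores and no CArG box.

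EGR1 (chromosome 5, 138465490 to 138469315, + strand), the best known growth factor response gene, was read at 3.51, 6.05 and 21.2 FPKM in the 3 control libraries. With calcium it stood at 176.5, 99.4 and 191.1 FPKM, and with cadmium at 11.3, 68.5 and 89.7 FPKM. The calcium libraries lay above every other library of the series for EGR1, while 1 cadmium library lay within the range of control. GSK4716 gave 3.84, 6.32 and 44.2 FPKM, of which the third lay above all controls and the others within their range. DES gave 10.3, 4.56 and 6.39 FPKM, the lowest group mean. DES with calcium gave 40.2, 39.5 and 25.5 FPKM, between the calcium and the DES libraries with no overlap, and DES with cadmium gave 6.93, 2.60 and 24.3 FPKM. Control and GSK4716 each had a library that stood well above the rest of its group for EGR1, so that the spread in these groups was close to or above their mean (control 10.2 ± 9.55 and GSK4716 18.1 ± 22.6 FPKM; SD, n = 3).

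EGR2 (chromosome 10, 62811996 to 62919900, - strand), a factor of myelination and lymphocyte differentiation, was scarce, with a mean of 0.336 FPKM over the 21 libraries, below the 0.5 FPKM set for testing. It was counted with 4, 0 and 2 fragments in control and with 73, 70 and 157 fragments in calcium, that is 1.29 ± 0.537 FPKM against 0.0221 ± 0.0192 FPKM (SD, n = 3). The calcium libraries did not overlap with any other group for EGR2. Between 17 and 38 fragments were found with DES with calcium, 9 to 31 with DES with cadmium, 1 to 24 with cadmium, 2 to 8 with DES and 1 to 10 with GSK4716, and each neighbouring pair of these groups overlapped. EGR3 (chromosome 8, 22687659 to 22693302, - strand) had 0 to 5 fragments in every library, and no difference was detectable at this depth. It overlaps a second gene, and no fold is given.

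NR4A1 (chromosome 12, 52022832 to 52059507, + strand), the receptor also known as Nur77, was at 1.05, 1.42 and 1.77 FPKM in control and at 35.3, 87.7 and 47.3 FPKM in calcium. GSK4716 left it at 1.15, 1.61 and 1.71 FPKM. The lowest calcium library was thus above all others for this gene, and GSK4716 overlapped with control. DES alone gave 8.33, 10.2 and 10.2 FPKM, a narrow range above all controls, and DES with calcium gave 24.5, 31.5 and 13.8 FPKM. Cadmium gave 1.62, 13.4 and 5.09 FPKM and DES with cadmium 6.96, 8.34 and 14.8 FPKM. In cadmium, replicate 1 lay within control, as it did for EGR1. NR4A1 overlaps the long non-coding gene AC025259.3 on the other strand (mean 1.66 FPKM), and since the library protocol names both a stranded and an unstranded option, fragments of the pair may not be separated.

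NR4A2 (chromosome 2, 156324432 to 156342348, - strand), known as Nurr1 from dopamine neurons, was at 0.686, 0.788 and 0.320 FPKM in control and at 11.6, 44.0 and 16.3 FPKM in calcium. DES gave 2.98, 6.74 and 9.01 FPKM and DES with calcium 8.94, 16.7 and 7.84 FPKM. All libraries with DES lay above all libraries of control, cadmium and GSK4716 for NR4A2. Cadmium gave 1.03, 2.52 and 0.644 FPKM and GSK4716 0.784, 0.824 and 0.709 FPKM, both overlapping with control. DES with cadmium gave 3.81, 3.96 and 6.65 FPKM.

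NR4A3 (chromosome 9, 99821855 to 99866891, + strand), or NOR1, was barely present in control, where 3, 5 and 1 fragments gave 0.0147, 0.0375 and 0.00958 FPKM. Calcium gave 2.39, 12.8 and 4.58 FPKM. Cadmium gave 0.209, 1.61 and 3.57 FPKM, with replicate 1 again the lowest of its group. The level with GSK4716 was 0.107, 0.0714 and 0.0997 FPKM, from 8 to 15 fragments a library. DES gave 0.343, 0.668 and 0.249 FPKM, DES with calcium 1.05, 1.76 and 0.288 FPKM and DES with cadmium 0.414, 0.343 and 0.392 FPKM. Every treated library thus exceeded the 3 controls for NR4A3, by the smallest margin with GSK4716. NR4A3 passed the limit for testing also without the calcium libraries, with a mean of 0.624 FPKM over the other 18.

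IER3 (chromosome 6, 30743199 to 30744554, - strand) was the most abundant of the genes, with a mean of 149.1 FPKM. It was at 68.8, 110.2 and 145.5 FPKM in control and at 459.2, 809.2 and 339.2 FPKM in calcium. DES gave 40.5, 30.1 and 27.9 FPKM, DES with calcium 37.1, 52.8 and 34.1 FPKM and DES with cadmium 53.6, 13.9 and 17.4 FPKM. The 9 libraries with DES were all below the 12 without it. Cadmium gave 180.5, 266.3 and 89.1 FPKM and GSK4716 102.8, 98.7 and 154.4 FPKM, both overlapping with control. IER2 (chromosome 19, 13150415 to 13154908, + strand) had the same order of groups as IER3, from 56.4 ± 8.77 FPKM in calcium through 25.2 ± 6.03 in cadmium and 20.9 ± 4.18 in GSK4716 to 18.3 ± 4.30 in control (SD, n = 3). It was at 11.9 to 15.3 FPKM with DES with calcium, 7.79 to 10.6 FPKM with DES and 6.71 to 9.36 FPKM with DES with cadmium, all below control, and DES overlapped with DES with cadmium. IER3 and IER2 also overlap antisense genes, IER3-AS1 and AC011446.2, with the same limit on strand as for NR4A1.

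IER5 (chromosome 1, 181088712 to 181092899, + strand), a regulator that is known to be a target of the heat shock factor HSF1, had a different order. DES with cadmium was highest at 107.5, 65.4 and 127.9 FPKM, and DES gave 64.1, 47.1 and 45.2 FPKM. DES with calcium gave 55.1, 34.8 and 42.2 FPKM, overlapping with DES alone. Cadmium gave 9.30, 22.4 and 36.4 FPKM and calcium 13.6, 28.8 and 12.8 FPKM, all above the control libraries at 5.81, 7.56 and 7.02 FPKM. GSK4716 was lowest, at 4.89, 3.91 and 4.98 FPKM, below control with no overlap. Among the genes other than EGR3, IER5 was the 1 with its highest mean outside the calcium group.

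SRF (chromosome 6, 43171299 to 43181507, + strand), the transcription factor that reads the CArG box, ranged from 6.91 to 28.1 FPKM over all libraries. It was at 11.4, 12.2 and 18.05 FPKM in control and at 19.9, 22.6 and 28.1 FPKM in calcium. DES gave 14.9, 18.5 and 25.0 FPKM and DES with calcium 11.8, 13.9 and 12.05 FPKM, so that SRF was lower in every library that had both than in any with DES alone. The values with cadmium were 9.54, 27.5 and 14.4 FPKM, with GSK4716 9.86, 14.7 and 14.4 FPKM and with DES with cadmium 6.91, 16.6 and 16.8 FPKM. Calcium was the 1 group that lay above control without overlap for SRF, and all neighbours in the order of group means overlapped.

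**Figure D2:**
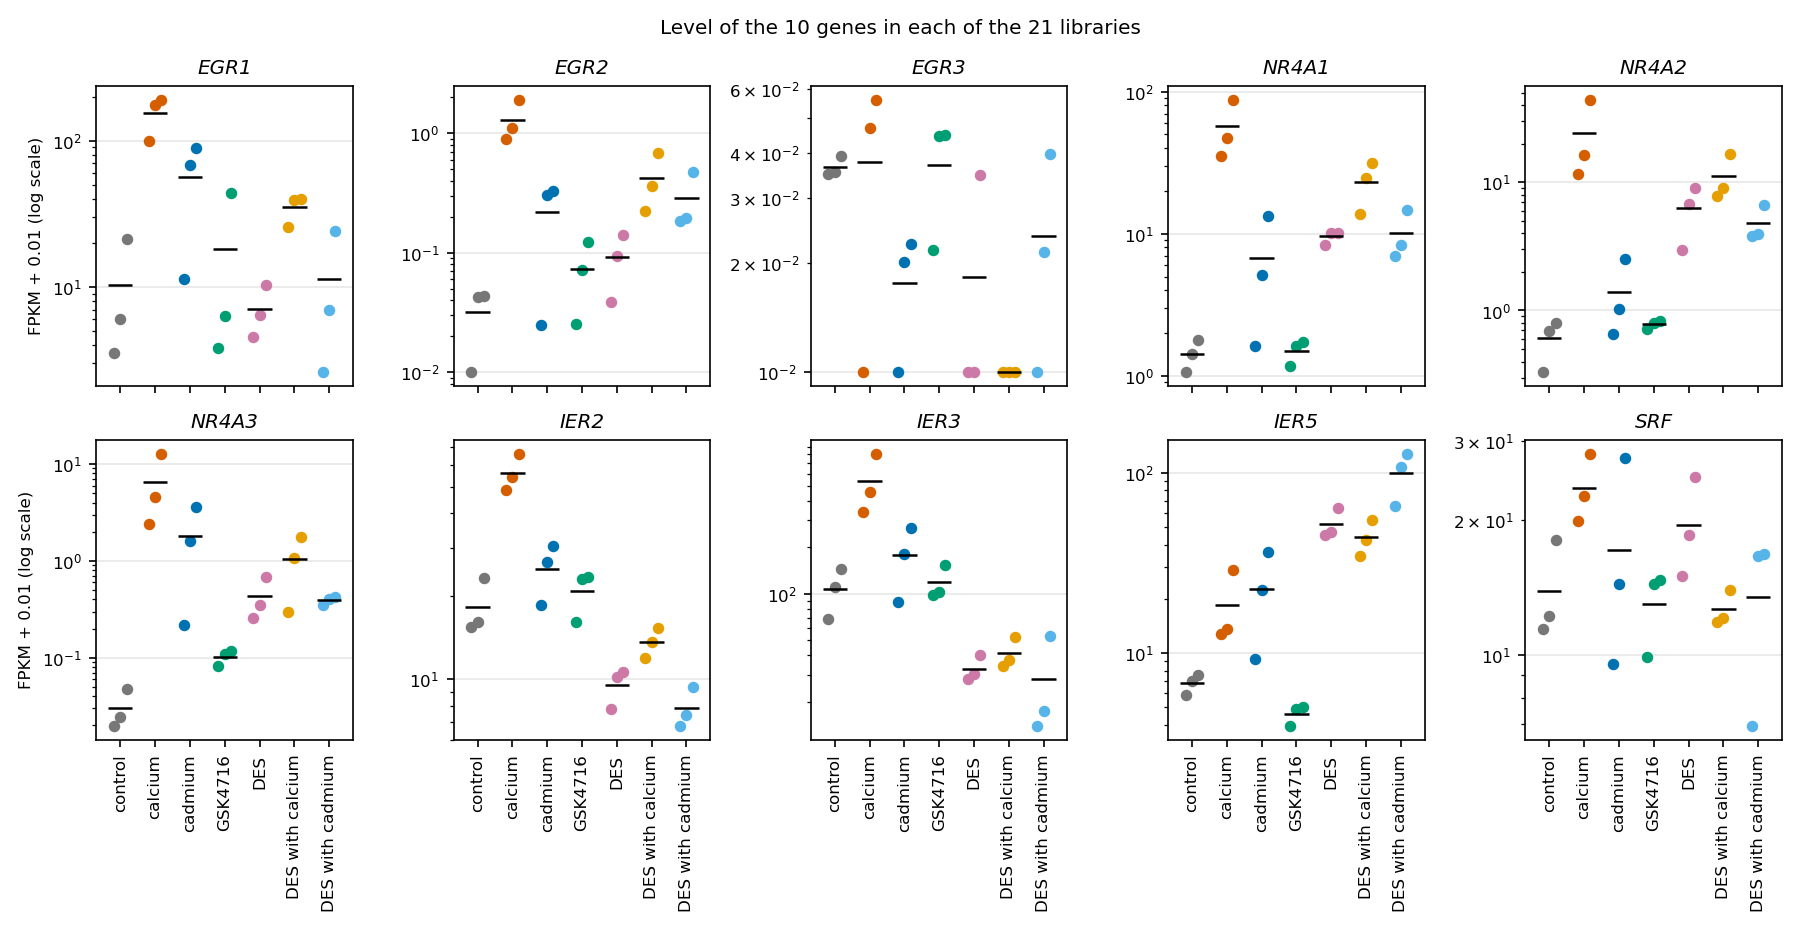
Level of each gene in FPKM plus 0.01 on a log axis (its range differs between panels), with a point for each library, a black line at the mean of 3 and a colour for each group. Calcium has the highest mean for 8 of the 9 genes other than EGR3 (which, at 0 to 5 fragments, is at the limit of detection), IER5 is highest with DES with cadmium, and IER2 and IER3 are lowest in the 3 groups with DES.

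Calcium against control asks which of these genes differ after 24 h with the metal. EGR1, NR4A1, NR4A2, NR4A3, IER2 and IER3 rose, that is 6 of the 8 genes tested, where 4.6% of all 14686 genes tested rose and 2.53% fell. The test was limma on log2(FPKM + 0.1) with Benjamini-Hochberg adjustment over all genes tested and a threshold of 0.05. Among the NR4A receptors, NR4A3 rose by a log2 fold change of 5.47 (SE 0.601, adjusted p = 0.0116), NR4A1 by 5.15 (SE 0.366, adjusted p = 0.0083) and NR4A2 by 4.94 (SE 0.553, adjusted p = 0.012). EGR1 rose by 4.27 (SE 0.663, adjusted p = 0.0229). The size for NR4A3 rests on 9 fragments in control, and the order of these genes depended on the pseudocount: with a pseudocount of 1, NR4A1 was at 4.49, EGR1 at 4.08, NR4A2 at 3.76 and NR4A3 at 2.65. IER3 rose by 2.28 (SE 0.408, adjusted p = 0.0308) and IER2 by 1.63 (SE 0.200, adjusted p = 0.0133). IER5, at 1.33 (95% interval 0.525 to 2.13, adjusted p = 0.0691), and SRF, at 0.77 (0.233 to 1.31, adjusted p = 0.0977), missed the threshold, though for all 8 genes the calcium libraries lay above the control libraries, which held for 16% of all genes. EGR2, read from a fit without the filter, rose by 3.46 (SE 0.498, adjusted p = 0.0279). The size for EGR2 rests on 6 fragments in control, at a mean of 0.0221 FPKM, below the pseudocount of 0.1. Its call was not read under other settings or with a library left out. The median log2 fold change of the 8 was 3.27, and -0.01 over all genes tested. The calls depended on single controls: without control replicate 1 none of the 8 was called (7 genes in the whole table), without control replicate 2 only NR4A1 was called, and without control replicate 3 all 6 were. Without calcium replicate 1 or 2, the 4 genes called were the NR4A receptors and IER2, and without calcium replicate 3 IER3 was called besides these. EGR1 was thus called in 1 of the 6 fits, with an adjusted p of up to 0.1.

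Calcium against GSK4716 sets 2 groups of the same serum-free medium side by side. All 8 genes were higher in every calcium library than in every GSK4716 library, as were 14.4% of all genes, and 6 of 8 passed the test, where 1.8% of all genes did in this direction. NR4A1 differed by 5.07 (SE 0.351, adjusted p = 0.012 by limma), NR4A3 by 4.79 (SE 0.594, adjusted p = 0.0244) and NR4A2 by 4.55 (SE 0.478, adjusted p = 0.0237) on the log2 scale. The IER genes passed as well, at 2.11 for IER3 (adjusted p = 0.0452), 1.88 for IER5 (adjusted p = 0.0477) and 1.43 for IER2 (adjusted p = 0.0284). EGR1, at 3.85 (95% interval 1.70 to 5.998, adjusted p = 0.0816), and SRF, at 0.86 (0.353 to 1.37, adjusted p = 0.0924), did not. Of the 8 alternatives that kept every library, EGR1 passed in 3 and SRF in 0, and neither passed with 1 library left out. Without the filter on low values the IER genes missed the threshold (adjusted p = 0.051 to 0.0825 by limma), as did IER5 with total fragments as the scale (0.0532). Without calcium replicate 1 or 2 the NR4A genes stayed past the threshold as the only 3, and without any other library of these groups (calcium replicate 3 or any of GSK4716) none did. Of all genes, 100 and 27 passed without calcium replicate 1 and 2, 26 without calcium replicate 3, and 0 to 11 without a GSK4716 library.

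Calcium against cadmium compares the metals, whose media differ in serum. NR4A2 was higher with calcium by a log2 fold change of 3.97 (SE 0.631, adjusted p = 0.042 by limma), the only 1 of the 8 to pass, where 1.59% of all genes were higher. EGR1 differed by 1.86 (95% interval 0.0072 to 3.71, adjusted p = 0.219). The call for NR4A2 was lost without any of the 6 libraries, where its adjusted p was 0.0834 to 0.135, and without the filter on low values (adjusted p = 0.0722). With 1 library left out, 4 to 37 of all genes were called in either direction, against 358 with all 6.

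Cadmium against control gave no call for these genes by limma, 0 of 8, with 3 of 8 at an unadjusted p under 0.05 and 0 of 8 by limma-voom on fragments recovered from the FPKM values. Of all genes, 0.15% were called by limma, 25.9% had an unadjusted p under 0.05 and 3.24% were called by limma-voom. The differences were all above 0, from 0.20 for SRF to 3.38 for NR4A3 (SE 0.889, 95% interval 1.22 to 5.54, adjusted p = 0.1). The size for NR4A3 again depended on the pseudocount, and with a pseudocount of 1 it was at 1.25, below EGR1 at 2.26. By limma-voom the largest difference among the 8 was 5.61. IER5 stood at 1.53 (95% interval 0.358 to 2.69, adjusted p = 0.126), EGR1 at 2.41 (0.0470 to 4.77, adjusted p = 0.187) and NR4A1 at 1.73 (-0.0283 to 3.497, adjusted p = 0.198). For IER5 and NR4A3, 2 of the 8, the cadmium libraries lay above all controls, as they did for 17.7% of all genes. Cadmium replicate 1 was the lowest of its group for EGR1, NR4A1, NR4A3, IER2, IER5 and SRF, and without it 3 of 8 were called: NR4A1, NR4A3 and IER5, with 1605 genes called in the whole table.

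GSK4716 against control gave 0 of 8 calls by limma, with 2 of 8 at an unadjusted p under 0.05 and 0 of 8 by limma-voom. Of all genes, 0% passed by limma, 16.4% had an unadjusted p under 0.05 and 0.558% passed by limma-voom. Those nearest to the threshold were IER5, lower with a log2 fold change of -0.56 (95% interval -0.931 to -0.180, adjusted p = 0.201), and NR4A3, at 0.68 (0.0779 to 1.28, adjusted p = 0.263), which was at 0.099 with a pseudocount of 1 and at 2.15 by limma-voom. NR4A3 was the 1 gene of the 8 whose GSK4716 libraries were all above control, where 10.7% of all genes were. The intervals for EGR1 reached from -2.20 to 3.03, so that at this spread even a large difference could not be seen.

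DES against control moved the genes in opposite directions. IER5, NR4A1, NR4A2 and NR4A3 rose, 4 of 8, where 16.7% of all genes rose, and IER2 and IER3 fell, 2 of 8, where 12.9% of all genes fell. IER5 changed most firmly, by a log2 fold change of 2.91 (SE 0.190, adjusted p = 0.000325 by limma), followed by NR4A1 at 2.69 (SE 0.231, adjusted p = 0.000785). NR4A2 rose by 3.12 (SE 0.474, adjusted p = 0.00502) and NR4A3 by 2.03 (SE 0.578, adjusted p = 0.0374). IER3 fell by 1.67 on the log2 scale (SE 0.295, adjusted p = 0.0079) and IER2 fell by 0.92 (SE 0.214, adjusted p = 0.0193). EGR1, at -0.19 (95% interval -1.70 to 1.31, adjusted p = 0.836), and SRF, at 0.48 (-0.115 to 1.08, adjusted p = 0.185), did not pass. NR4A1, NR4A2, IER3 and IER5 stayed past the threshold without any of the 6 libraries. NR4A3 was at 0.47 with a pseudocount of 1 and missed the threshold there (adjusted p = 0.0595 by limma), without the filter on low values (0.0749) and with all 7 groups in 1 fit (0.0532). A replicate block lost it too (adjusted p = 0.091 by limma), and NR4A3 was called in 3 of its 7 alternatives that kept every library. With 1 library left out it was called only without DES replicate 3, and IER2 was lost without control replicate 2 or DES replicate 2.

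**Figure D3:**
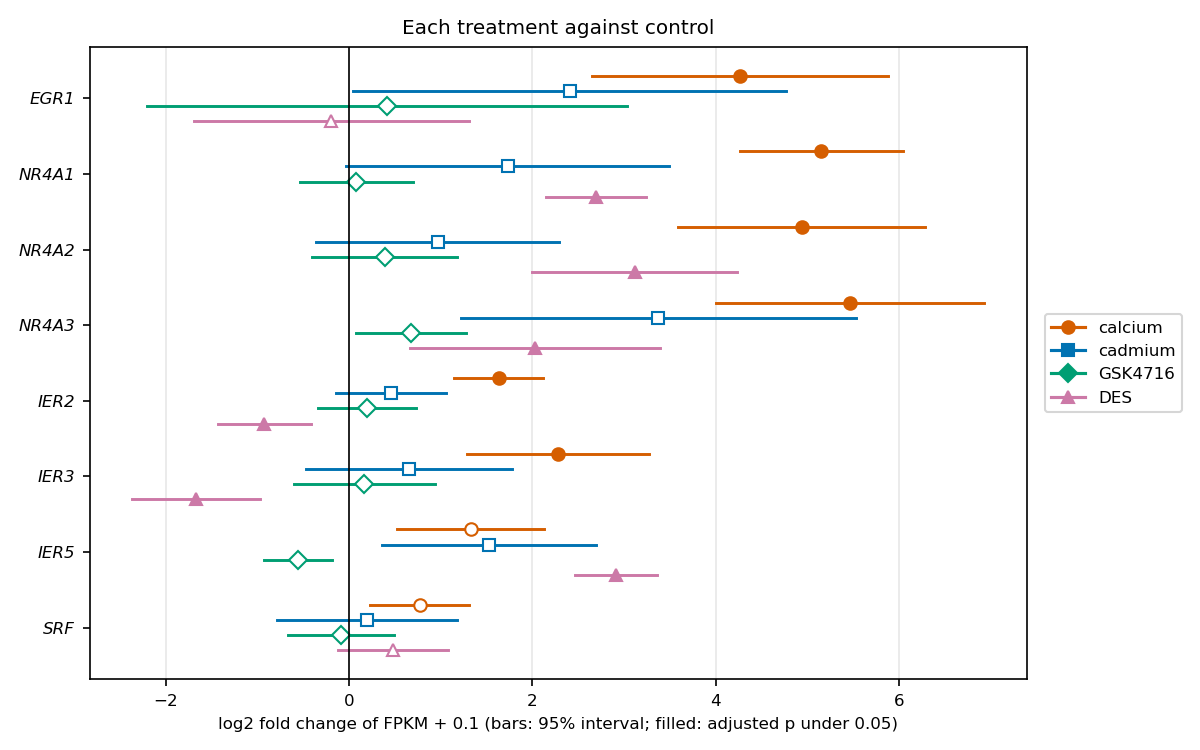
Log2 fold change of FPKM + 0.1 (x axis) for the 8 tested genes with calcium, cadmium, GSK4716 and DES, each against control; bars are 95% intervals and filled symbols have an adjusted p under 0.05. The NR4A genes lie right of 0 and filled with calcium and with DES, EGR1 is filled with calcium alone, and IER2 and IER3 lie on opposite sides with calcium and DES.

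With DES present, the log2 difference that calcium made was lower for each of the 8 genes. DES with calcium against DES gave 0 of 8 calls by limma, with 4 of 8 at an unadjusted p under 0.05 and 0 of 8 by limma-voom. Of all genes, 0.136% were called by limma, all of them lower, 13.2% had an unadjusted p under 0.05 and limma-voom called 0%. EGR1 stood at 2.34 (95% interval 1.52 to 3.16, adjusted p = 0.0975), NR4A1 at 1.202 (0.454 to 1.95, adjusted p = 0.232) and SRF at -0.60 (-1.11 to -0.0835, adjusted p = 0.328). For 3 of the 8, EGR1, NR4A1 and IER2, the libraries with both lay above those with DES alone, which held for 7.84% of all genes.

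The change in the calcium difference was tested as an interaction, that is the calcium difference with DES less the one without it. It was below 0 for all 8 genes and passed for 5, where 2.38% of all genes were called in this direction. It was -4.53 for NR4A3 (SE 0.945, adjusted p = 0.0282 by limma), -4.06 for NR4A2 (SE 0.756, adjusted p = 0.0183) and -3.95 for NR4A1 (SE 0.498, adjusted p = 0.00408) on the log2 scale. For IER3 it was -1.95 (SE 0.482, adjusted p = 0.0491) and for SRF -1.37 (SE 0.320, adjusted p = 0.0401). IER2, at -1.11 (adjusted p = 0.0522), IER5, at -1.58 (adjusted p = 0.0614), and EGR1, at -1.92 (95% interval -3.62 to -0.232, adjusted p = 0.193), missed the threshold. NR4A1 passed without any of the 12 libraries and NR4A2 without 11 of them, the exception being DES replicate 2, where NR4A1 was the 1 gene called. NR4A3 passed in 7 of the 12. With a pseudocount of 1 it was at -2.19 and missed the threshold (adjusted p = 0.0608 by limma), as it did without the filter on low values (0.0654) and with limma-voom (0.0581). IER3 and SRF missed it without the filter (0.118 and 0.0919) and with all 7 groups in 1 fit (0.158 and 0.2), and IER3 with median-ratio scaling (0.0503). SRF passed in 2 of these 12 fits (without control replicate 3 or DES replicate 1), and IER3 in 3 (without control replicate 3, calcium replicate 3 or DES with calcium replicate 2). For NR4A genes, DES alone was already above control, so that the smaller difference starts from a higher level. This interaction is the difference between the calcium differences given above, uses the same libraries of control, calcium, DES and DES with calcium, and is not independent of them.

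**Figure D4:**
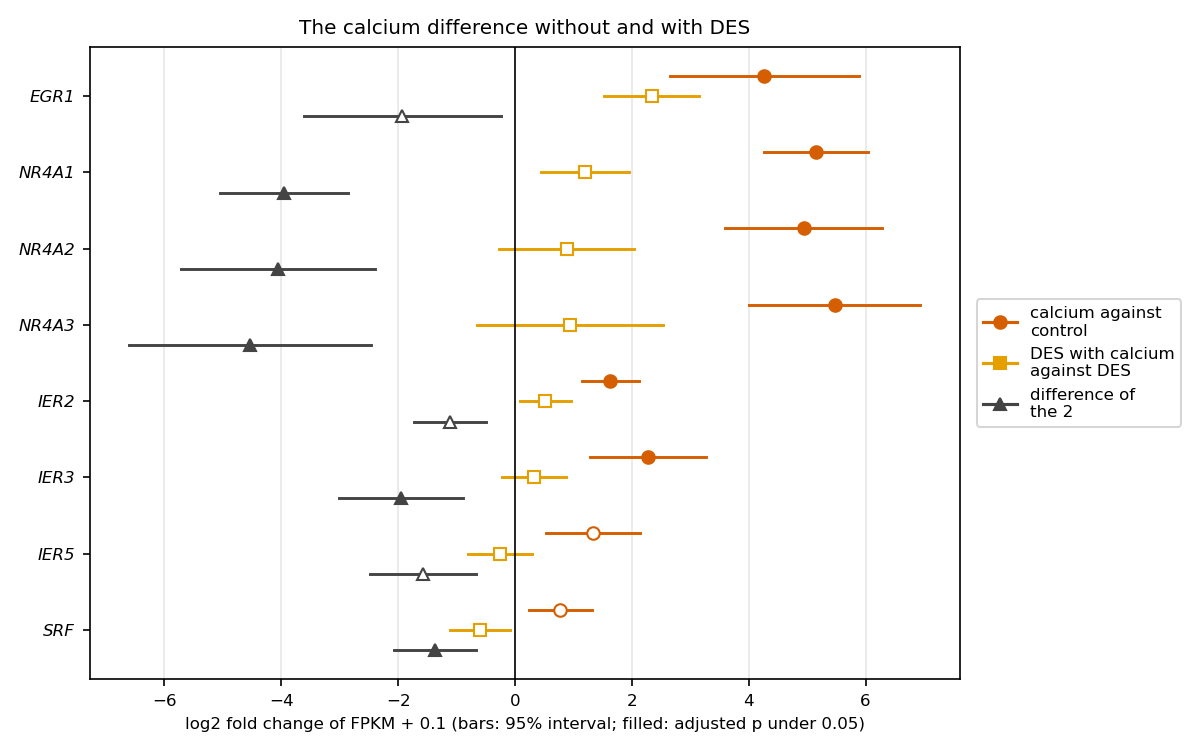
Log2 fold change of FPKM + 0.1 (x axis) for the calcium difference without DES (circles), with DES (squares) and for the difference between these (triangles), for the 8 tested genes; bars are 95% intervals and filled symbols have an adjusted p under 0.05. The triangles of all 8 genes lie left of 0, at -4.53 to -3.95 for the NR4A genes, of which NR4A3 moved to -2.19 with a pseudocount of 1.

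DES with calcium against calcium gives the levels with both agents directly. EGR1, NR4A3, IER2, IER3 and SRF were lower when DES was present, 5 of 8, where 16.5% of all genes were lower, and IER5 was higher, 1 of 8, where 18.5% were. IER3 fell by 3.62 on the log2 scale (SE 0.343, adjusted p = 0.00188 by limma) and IER2 fell by 2.04 (SE 0.168, adjusted p = 0.00169). EGR1 fell by 2.12 (SE 0.304, adjusted p = 0.00438), NR4A3 fell by 2.50 (SE 0.770, adjusted p = 0.0449) and SRF fell by 0.88 (SE 0.170, adjusted p = 0.01). IER5 rose by 1.33 (SE 0.344, adjusted p = 0.0258). NR4A1, at -1.26 (95% interval -2.25 to -0.261, adjusted p = 0.0565), and NR4A2, at -0.94 (-2.20 to 0.315, adjusted p = 0.205), missed the threshold. Of the 8 alternatives that kept every library, NR4A1 passed in 4 and NR4A2 in 1, and neither passed with 1 library left out. EGR1, IER2, IER3 and SRF stayed past the threshold without any of the 6 libraries, while EGR1 (adjusted p = 0.0797 by limma) and SRF (0.063) missed it with all 7 groups in 1 fit and NR4A3 (0.0753) without the filter on low values. NR4A3 was kept only without calcium replicate 1, and IER5 only without calcium replicate 2 or DES with calcium replicate 2.

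DES with cadmium against cadmium gave lower IER2 and IER3, 2 of 8, where 5.13% of all genes were lower, and higher IER5, 1 of 8, where 4.76% were. IER3 fell by 2.78 (SE 0.614, adjusted p = 0.0428 by limma), IER2 fell by 1.66 (SE 0.264, adjusted p = 0.0305) and IER5 rose by 2.29 (SE 0.528, adjusted p = 0.0454). These calls were lost without any 1 of 5 libraries, and without DES with cadmium replicate 1 IER2 and IER3 remained. Without the filter on low values IER2, IER3 and IER5 all missed the threshold (adjusted p = 0.0628 to 0.0863 by limma), as did IER5 with total fragments as the scale (0.0535). NR4A2, at 1.87 (95% interval 0.614 to 3.13, adjusted p = 0.0665), and EGR1, at -2.42 (-4.88 to 0.0497, adjusted p = 0.159), missed the threshold. So did NR4A1, NR4A3 and SRF. DES with cadmium against DES had 0 of 8 calls by limma, with 1 of 8 at an unadjusted p under 0.05 and 0 of 8 by limma-voom, where 0.266% of all genes were called by limma, 10.4% had an unadjusted p under 0.05 and limma-voom called 0%. IER5, the highest of all groups in DES with cadmium, stood at 0.90 there (95% interval 0.159 to 1.65, adjusted p = 0.376). The interaction of cadmium and DES also had 0 of 8 calls, with 1 of 8 at an unadjusted p under 0.05 and 0 of 8 by limma-voom. Of all genes, 1.18% were called by limma, 18.5% had an unadjusted p under 0.05 and 0.851% were called by limma-voom. NR4A3 was at -3.40 in it (95% interval -5.80 to -1.01, adjusted p = 0.132), and it passed without cadmium replicate 1.

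Other immediate early genes were read from a list of 36, of which 34 could be tested. With calcium, 23 of 34 rose, where 4.6% of all genes did, with a median log2 fold change of 2.53. Without control replicate 1 there were 2, without control replicate 2 there were 6, and without any other of the 6 libraries 18 to 23. The largest were the AP-1 subunits FOS, from 0.420 ± 0.0819 FPKM in control to 163.7 ± 98.3 FPKM in calcium (SD, n = 3; log2 fold change 8.15, adjusted p = 0.00481 by limma), and FOSB, from 0.224 ± 0.0545 to 29.2 ± 19.4 FPKM (6.32, adjusted p = 0.0083). GEM, a small GTPase that restrains calcium channels, had 2 to 3 fragments in each control library and went from 0.0448 ± 0.00932 to 13.2 ± 8.03 FPKM with calcium (SD, n = 3; log2 fold change 6.30, adjusted p = 0.00901 by limma). With DES, 20 of 34 rose and 2 fell, where 16.7% and 12.9% of all genes did, with a median of 1.21. FOS was at 11.2 ± 7.88 FPKM with DES and at 132.3 ± 42.5 FPKM with DES with calcium. In the interaction of calcium and DES, 20 of 34 passed, all below 0, where 2.38% of all genes did, with a median of -2.26. With 1 library left out there were 13 (without control replicate 1) to 20. When DES was added to calcium, 13 of 34 were lower and 5 higher than with calcium alone, where 16.5% and 18.5% of all genes were. As 20 of 34 rose with DES alone, the smaller calcium difference can start from a higher level, which was not tested. Cadmium gave 0 of 34 by limma, 14 at an unadjusted p under 0.05 (25.9% of all genes) and 2 by limma-voom (3.24% of all genes). GSK4716 gave 0 of 34 by limma, 12 at an unadjusted p under 0.05 (16.4% of all genes) and 2 by limma-voom (0.558% of all genes). FOS stayed past the threshold with calcium without any of the 6 libraries.

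NAB2, the corepressor that is induced by EGR factors and binds them, was at 10.96 ± 2.62 FPKM in control, 40.1 ± 7.46 in calcium and 34.8 ± 1.95 in DES (SD, n = 3). It rose with calcium by 1.87 (adjusted p = 0.0123 by limma) and with DES by 1.68 (adjusted p = 0.002), and was highest with DES with cadmium at 82.0 ± 17.4 FPKM. Its call with calcium was lost without control replicate 1 or 2. It was the 1 gene called with calcium among the 3 tested of the 5 EGR corepressors and NR4A partners, where 4.6% of all genes rose and 2.53% fell. With DES, RXRA, a partner of NR4A1 and NR4A2, fell by 0.80 (adjusted p = 0.0417), where 12.9% of all genes fell, a call that was lost in 5 of the 6 fits with 1 library left out (kept without DES replicate 2) and without the filter on low values (adjusted p = 0.0825).

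Of 17 partners and upstream kinases of SRF tested with calcium, MRTFA, the actin-sensing coactivator of SRF, rose by 0.91 (adjusted p = 0.0415 by limma), and RPS6KA5, a kinase that phosphorylates CREB and histone H3 (MSK1), fell by 1.4001 (adjusted p = 0.0423). That is 1 of 17 in each direction, where 4.6% of all genes rose and 2.53% fell. The median was 0.01 for the 17. RPS6KA5 was lost without any of the 6 libraries, and MRTFA stayed in 1 of these 6 fits. With DES 1 of 17 rose and 5 fell, where 16.7% and 12.9% of all genes did, and without control replicate 2 there were 0 and 1. Among the 5 were MRTFA, which fell by 0.85 (adjusted p = 0.0155), and MRTFB, which fell by 1.86 (adjusted p = 0.00319). MRTFA was at 9.18 ± 1.45 FPKM in control, 17.4 ± 3.23 in calcium and 5.03 ± 0.652 in DES (SD, n = 3).

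Of the cytoskeletal targets of SRF, 8 of 12 were tested and 6 rose with calcium, where 4.6% of all genes did, with a median log2 fold change of 1.25. Without control replicate 1 or 2 there were 0, without calcium replicate 1 there were 2, and without any other library 4 to 5. ZYX, the focal adhesion protein zyxin, rose by 2.14 (adjusted p = 0.00979 by limma), ACTG1, cytoplasmic actin, by 1.65 (adjusted p = 0.025), and FLNA, the actin crosslinker filamin A, by 1.59 (adjusted p = 0.0138). ACTG1 went from 689.9 ± 93.0 FPKM in control to 2179 ± 368.2 FPKM in calcium (SD, n = 3). When DES was added to calcium, 7 of the 8 were lower than with calcium alone, where 16.5% of all genes were, and 3 to 5 were with 1 library left out (3 without calcium replicate 2 or DES with calcium replicate 1). With DES alone, 3 of 8 rose and 1, TAGLN, fell by 0.95 (adjusted p = 0.00699), where 16.7% and 12.9% of all genes did, and without control replicate 1 or 2 only 1 rose. Of 5 genes tested among calcineurin and NFAT, RCAN1, the calcineurin inhibitor that is itself a calcineurin and NFAT target, was the 1 that rose with calcium, where 4.6% of all genes did, by 1.72 (adjusted p = 0.0229), from 3.12 ± 0.384 to 10.9 ± 3.81 FPKM (SD, n = 3), a call lost without control replicate 1 or 2 or calcium replicate 3.

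The genes whose log2 levels followed those of a member most closely over the 21 libraries, which share their treatments and medium, were named for the most abundant gene of each family and for SRF. NR4A1 was nearest to GEM (Pearson r = 0.959), FOS (0.948) and CYR61, the matrix protein CCN1 (0.915). IER3 was nearest to CLDN4, a tight junction protein (0.952), RCAN1 (0.940) and CCNYL1 (0.918). EGR1 was nearest to ERRFI1, the feedback inhibitor of the EGF receptor (0.866), SPNS2 (0.852) and C1orf198 (0.852). SRF was nearest to SLC8B1, the mitochondrial sodium and calcium exchanger (0.821), MAFK (0.821) and TPBG (0.8003), a looser likeness than for the others. GEM, FOS and CYR61 had group means of 13.2, 163.7 and 176.9 FPKM with calcium against 0.0448, 0.420 and 9.34 FPKM in control, and each was above its control mean with DES, at 2.97, 11.2 and 36.7 FPKM.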

How the data were processed

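RNA was poly-A selected and sequenced as paired reads in 21 libraries, 3 per group, grouped by the treatment label. The authors deposited FPKM values per gene. The submitters' processing notes name HISAT2 2.0.5, featureCounts 1.5.0-p3 and GRCh38.p14, and the paper's methods name DESeq2 and edgeR, neither of which was run here. FPKM times gene length gave whole fragments for 100% of values (tolerance 0.05), which set the depth and fed limma-voom as an alternative. Pairs of libraries shared at most 5.27% of equal fragment counts, so none was a copy.

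Tests used limma 3.58.1 (lmFit, eBayes with trend) in R 4.3.3 on log2(FPKM + 0.1), for the 14686 of 58735 genes with a mean of at least 0.5 FPKM, and each fit held the libraries of its own groups. Adjustment was by Benjamini-Hochberg over every gene tested (two-sided, threshold 0.05). A fold change on this scale understates the change of low genes. EGR2 was read from a fit without the filter, which leaves out genes at 0 in every library fitted. Groups of 3 against 3 cannot pass 0.05 in an exact permutation test, so neighbouring levels are described by overlap. The code was tested on simulated data. Python 3.11.15 with pandas 2.3.3 computed the rest.

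All 10 genes were named, with the 3 genes most correlated with EGR1, NR4A1, IER3 and SRF, and, from each list, the 3 called with calcium with the largest fold change; other genes called with DES (RXRA, MRTFB, TAGLN) were named after their values were seen. The members and lists were chosen with earlier results of these data known. Replicate numbers paired the libraries (every pair's correlation of deviations over 0.1) in DES with calcium against DES and in DES with cadmium against DES, by the data and not by a label. Alternatives were a pseudocount of 1, no filter, a mean of at least 2 FPKM, median-ratio scaling, total fragments, all 7 groups in 1 fit, a replicate block, limma-voom and each library left out. RefSeq promoter windows were matched by symbol.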

Additional observations from a re-analysis of the deposited data

Results flagged for a closer look

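The interaction of calcium and DES passed the threshold by limma for 5 of the 8 genes, all below 0. Of all genes, 2.38% passed in this direction. It was -4.53 for NR4A3, -4.06 for NR4A2, -3.95 for NR4A1, -1.95 for IER3 and -1.37 for SRF on the log2 scale. NR4A3 was at -2.19 with a pseudocount of 1 and not past the threshold (adjusted p = 0.0608 by limma). With 1 library left out, IER3 passed in 3 of 12 fits and SRF in 2. Both missed the threshold without the filter on low values and with all 7 groups in 1 fit. For the NR4A genes and IER3 the difference without DES was above 0 and past the threshold, and with DES none of the 4 passed. With DES, 0 of all 14686 genes tested were called higher with calcium and 20 were called lower. For SRF the calcium difference was 0.77 without DES and -0.60 with it, neither past the threshold in its own test. The groups without DES are control and calcium, of which the medium is given for calcium alone, and the part of the medium was not tested.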

How the results depend on the processing

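For the member counts, the 12 comparisons kept their main value within 1.5 times under median-ratio scaling, total fragments and a pseudocount of 1. With all 7 groups in 1 fit, cadmium against control had 2 members called, where 1026 of 14686 genes were. DES with cadmium against cadmium had 5 (5459 genes), calcium against cadmium 4 (1563 genes) and the interaction of calcium and DES 3 (180 genes). In the main fit these comparisons had 22, 1453, 358 and 533 genes called. Without a filter on low values, DES with cadmium against cadmium had 0 (22 of 37528 genes) and calcium against GSK4716 3 (118 of 33920). Calcium against cadmium had 0 there (40 of 37070) and the interaction of calcium and DES 2 (227 of 40391). Calcium against cadmium had 3 with a mean of at least 2 FPKM (420 of 9990 genes) and 3 with limma-voom (602 of 14686). With a replicate block, DES with cadmium against cadmium had 0 (0 genes of the whole table) and calcium against GSK4716 1 (11 genes). In these comparisons the libraries shared only a number, and 2 of 6 libraries in each correlated best with their own number. The block kept the other counts within 1.5 times, and in DES with calcium against DES and DES with cadmium against DES, where the numbers paired the libraries, it changed no call. In DES with calcium against calcium all 6 libraries correlated best with their own number, a hint from the data alone. With the block IER5 was lost (adjusted p = 0.0506 by limma) while NR4A1 (0.027) and NR4A2 (0.0371) passed. That gave 7 called, all lower, where 2333 of 14686 genes were lower. The cause of these shifts was not tested.

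With 1 library left out, which also leaves fewer samples, members called ranged from 0 to 6 for calcium against control, 0 to 3 for cadmium against control, 4 to 6 for DES against control, 4 to 5 for DES with calcium against calcium, 0 to 2 for DES with cadmium against cadmium, 0 to 3 for calcium against GSK4716, 0 to 0 for calcium against cadmium, 1 to 7 for the interaction of calcium and DES and 0 to 1 for that of cadmium and DES. GSK4716 against control and both comparisons with DES stayed at 0. Of 78 fold changes printed, 3 turned their sign, all uncalled: EGR1 with GSK4716 ranged from -0.63 to 1.14, SRF with cadmium ranged from -0.21 to 0.55 and EGR1 with DES from -0.75 to 0.53.

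The 3 libraries per group limit what can be called. EGR3, at 0 to 5 fragments, and EGR2 in control are limited by depth.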
